A study of Mus musculus with 6 samples.

Results

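Transcripts of interferon regulatory factors (IRFs) and of the type I interferon receptor were examined in splenic natural killer (NK) cells with and without the m6A methyltransferase METTL3. The members were 9 genes chosen by symbol, the transcription factors Irf1, Irf2, Irf3, Irf4, Irf5, Irf8 and Irf9 and the receptor chains Ifnar1 and Ifnar2, and all 9 were found among the 14490 genes of the mRNA-seq table. The WT samples were NK cells of Mettl3fl/fl mice, and the cKO samples were NK cells of Ncr1Cre-Mettl3fl/fl mice, with 3 samples of each genotype. Both genotypes were on the C57BL/6 strain and carried the floxed Mettl3 alleles, and only cKO mice carried Cre, expressed from the Ncr1 locus that encodes NKp46 (by the study's methods from 1 of its alleles, Ncr1Cre/+). An effect of Cre or of the altered Ncr1 locus therefore cannot be told apart from that of Mettl3 deletion. The mice were untreated in this experiment and between 6 and 10 weeks old by the study's methods. Neither the labels nor the methods say whether a sample came from 1 mouse or from pooled mice, so p-values measure only the spread between these samples. The study's stated purpose for the comparison was to find genes expressed differently in cKO NK cells.

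Type I interferons bind a receptor of 2 chains, IFNAR1 and IFNAR2, which are served by the kinases TYK2 and JAK1. The kinases phosphorylate STAT proteins such as STAT2, and with IRF9 these form ISGF3, the complex that binds interferon-stimulated response elements and switches on interferon-stimulated genes. IRF3, IRF5 and IRF7 act earlier, where sensors of foreign nucleic acid or of microbes induce the interferon genes themselves. IRF1 activates and IRF2 mostly restrains genes with the same element. IRF4 and IRF8 bind DNA together with partners such as PU.1 and BATF and are best known from B cells, T cells and myeloid cells, and IRF8 is also needed for the antiviral response of NK cells.

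The labels were checked before the members were compared. Mettl3, the deleted gene, had between 1192 and 1303 normalized counts in the WT samples and between 297 and 405 in the cKO samples. Normalized counts are the reads of a gene divided by the size factor of the sample. Between 55965515 and 71464042 reads per sample fell on the listed genes. All 12 listed NK marker genes had a mean above 50 normalized counts, and their sum lay between 871311 and 907825 in WT and between 822856 and 862302 in cKO. Of these 12 genes 2 were called higher and 8 lower in cKO at a limma adjusted p under 0.05, and Ncr1 itself, the locus that carries Cre, fell by 0.40 on the log2 scale (limma adjusted p = 3.56e-11). Of all genes, 17.8% were called higher and 18.8% lower. The part of this NK marker shift in the levels of the members was not tested. Markers of other spleen cells were present at far lower sums, and those of B cells, between 1685 and 1729 in WT, stood at 2209 to 2275 in cKO.

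The genotypes differed most in Irf5 and Ifnar1, whose cKO means fell by 36.9% and fell by 24.2% of the WT means. Those of Irf9 fell by 9.83% and those of Irf8 fell by 9.10%. In the limma fit over all genes, 4 of the 9 genes had an adjusted p under 0.05, all 4 with lower values in cKO. This threshold was passed by 36.6% of all tested genes and with lower values in cKO by 18.8%, so a call on about 4 genes in 9 is near the share of the whole table. None of the 9 genes was called higher (0 genes, against 17.8% of all genes), and at an unadjusted p under 0.05 there was 1 higher and 5 lower. The cKO values lay entirely outside the WT values for 4 of the 9 genes, against 45.7% of all genes. No member (0 genes) reached the study's own limits of an unadjusted p under 0.05 with a change beyond 1 on the log2 scale in either direction, which 1.75% of all genes met. The median log2 fold change was −0.10 over the 9 genes and 0.0014 over all genes, and the median absolute value was 0.13 over the 9 and 0.17 over all. All 9 genes passed the filter on low values, as did every gene of the table.

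**Figure D1:**
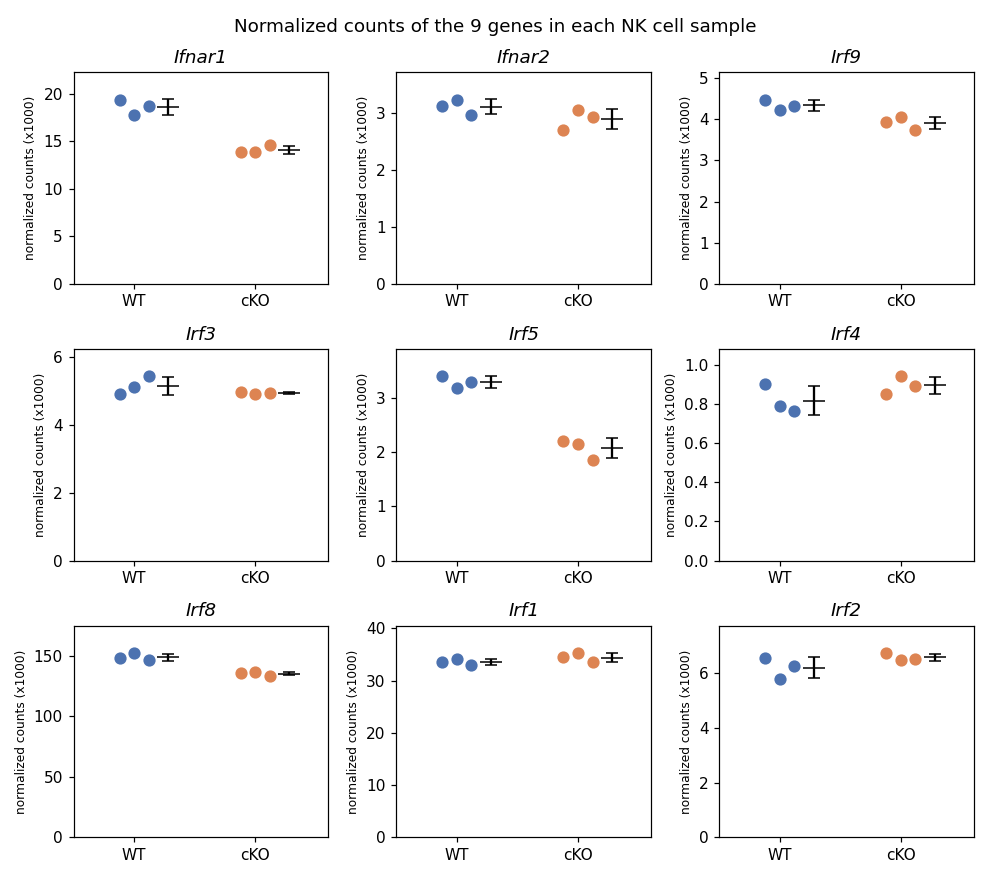
Normalized counts (in units of 1000, axis from 0) of each of the 9 genes in the 3 WT samples (blue) and 3 cKO samples (orange), with the mean and SD beside them in black. The genotypes are apart for Ifnar1, Irf9, Irf5 and Irf8 and overlap for the other 5 genes.

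The receptor chains differed in how far they moved. Ifnar1 encodes the chain that binds TYK2 and lies on chromosome 16 of GRCm38 from 91485238 to 91507441. It had 19378, 17739 and 18682 normalized counts in the WT samples numbered 1, 2 and 3, whereas those of cKO held 13909, 13826 and 14580.4. The genotypes did not overlap, and the gap between them exceeded the spread inside either. The mean was 18600 ± 822 in WT against 14105 ± 414 in cKO (SD, n = 3 each). The log2 fold change was −0.40 (95% confidence interval −0.47 to −0.33, limma adjusted p = 7.40e-10). The exact permutation test, two-sided, gave p = 0.1, the smallest value that 3 samples against 3 allow, and the same was found for Irf5, Irf8 and Irf9. In bulk samples, a lower share of cells that express a gene and less RNA per cell cannot be told apart.

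Ifnar2 encodes the chain that binds JAK1 and starts upstream on the same strand, from 91372783 to 91405589. Its normalized counts were 3128, 3235 and 2967 in WT and 2708, 3052 and 2935 in cKO. The groups overlapped, since the highest cKO sample, number 2, was above the lowest WT sample. The mean was 3110 ± 135 in WT against 2898 ± 175 in cKO (SD, n = 3 each), and the log2 fold change of −0.10 did not pass the test (95% confidence interval −0.20 to −0.0024, limma adjusted p = 0.104). It was called lower without WT replicate 3 (adjusted p = 0.0487), without cKO replicate 2 (adjusted p = 0.0397) and with a correction for GC content and length that was added after the data were seen (adjusted p = 0.0255). Since the chains work as a pair, their ratio was taken in each sample. The log2 ratio of Ifnar1 to Ifnar2 was 2.58 ± 0.11 in WT against 2.28 ± 0.094 in cKO (SD, n = 3 each), a difference of −0.30 with no overlap between genotypes (exact permutation test, two-sided, p = 0.1).

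The genes around the receptor chains did not share one direction. Il10rb, the second chain of the IL-10 and type III interferon receptors, lies between Ifnar2 and Ifnar1. It had 3103 ± 71.1 normalized counts in WT against 3199 ± 174 in cKO (SD, n = 3 each), a difference of 0.043 on the log2 scale (limma adjusted p = 0.506). Ifngr2, an interferon-gamma receptor chain next to Ifnar1, was scarcely detected, with 39.7 ± 6.40 (SD, n = 3) and 49.6 ± 9.12 (SD, n = 3). Its partner Ifngr1, on another chromosome, was abundant and fell from 92881 ± 752 (SD, n = 3) to 74962 ± 1276 (SD, n = 3), or by 0.31 on the log2 scale (limma adjusted p = 2.37e-09).

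**Figure D2:**
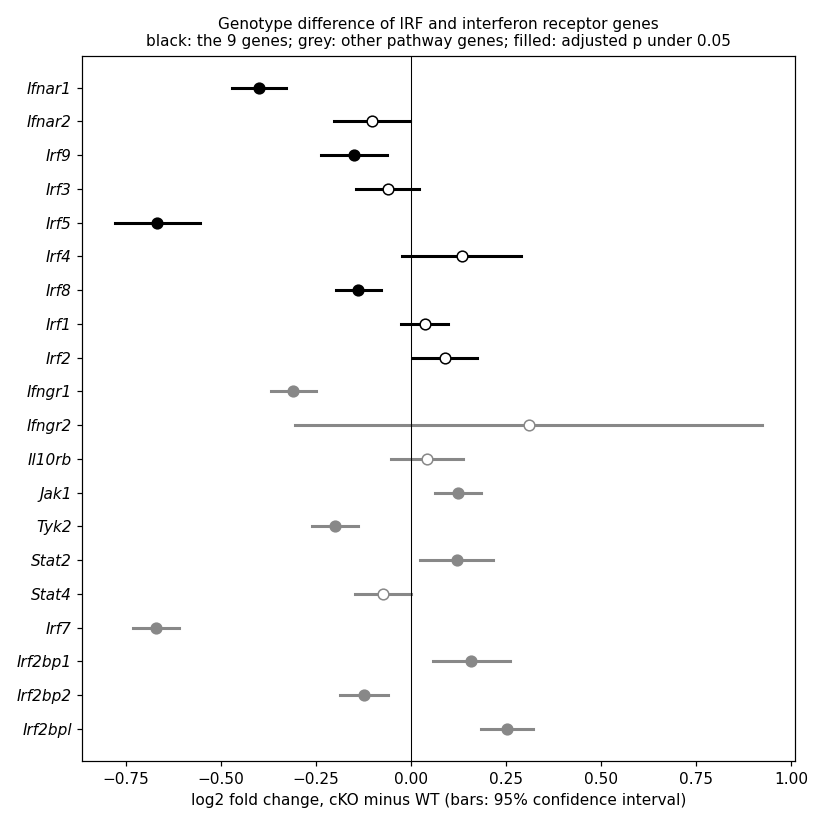
Log2 fold change (cKO minus WT, points) with its 95% confidence interval (bars) for the 9 genes (black) and for other receptor, kinase, STAT and IRF genes (grey). Filled points have an adjusted p under 0.05. Irf5 at −0.67 and Irf7 at −0.67 are farthest to the left.

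Irf9, the DNA-binding part of ISGF3, was modestly lower in cKO. The gene lies on chromosome 14 from 55603571 to 55610030. It had 4484, 4225 and 4314 normalized counts in the WT samples, in the order of their numbers, and the cKO samples held 3929, 4062 and 3752. The highest cKO sample was just under the lowest WT sample. The mean was 4341 ± 132 in WT against 3914 ± 155 in cKO (SD, n = 3 each), with a log2 fold change of −0.15 (95% confidence interval −0.24 to −0.064, limma adjusted p = 0.00582). With the samples scaled to equal totals the log2 fold change was −0.10 and the call was lost, with an adjusted p of 0.0515. With 1 sample left out the call was kept, but narrowly without cKO replicate 3 (adjusted p = 0.0483) and without WT replicate 1 (adjusted p = 0.0380). The annotation overlaps Irf9 with Rnf31 on the same strand, and how reads in the shared part were assigned is not given in the sources used here. Rnf31 itself had 5449 ± 106 normalized counts in WT against 5658 ± 88.4 in cKO (SD, n = 3 each) (limma adjusted p = 0.265).

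Stat2, which encodes a partner of IRF9, and the kinase genes did not all fall together with it. Stat2 had 2987 ± 72.2 normalized counts in WT against 3251 ± 197 in cKO (SD, n = 3 each), or 0.12 on the log2 scale (limma adjusted p = 0.0451). This call was lost without WT replicate 1, WT replicate 2, cKO replicate 1 or cKO replicate 3, where the adjusted p was 0.103, 0.117, 0.249 and 0.131, with the GC and length correction, where it was 0.195, and with limma-voom on reads recovered from the values, where it was 0.0544. Stat4, whose product type I interferon also activates in NK cells, was not called (log2 fold change −0.074, limma adjusted p = 0.109). Jak1 rose slightly, by 0.12 on the log2 scale (limma adjusted p = 0.00136), and Tyk2 fell, with −0.20 (limma adjusted p = 6.60e-06). The log2 ratio of Irf9 to Stat2 was 0.54 ± 0.055 in WT against 0.27 ± 0.13 in cKO (SD, n = 3 each), without overlap (exact permutation test, two-sided, p = 0.1).

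Irf5 and Irf3 belong to the factors that induce interferon genes, and they behaved differently. Irf5 acts downstream of MYD88 and toll-like receptors and lies on chromosome 6 from 29526625 to 29541871. It had 3406, 3182 and 3295 normalized counts in WT and 2216, 2157 and 1867 in cKO, in the order of the sample numbers. The lowest WT value exceeded the highest cKO value by a wide margin, and cKO sample 3 was the lowest of all. The mean was 3294 ± 112 in WT against 2080.4 ± 187 in cKO (SD, n = 3 each), a log2 fold change of −0.67 (95% confidence interval −0.78 to −0.55, limma adjusted p = 2.32e-10). In absolute size this change ranked 917 among the 14490 genes. Tnpo3 overlaps Irf5 on the other strand, and the sources used here do not say whether reads were counted by strand. Tnpo3 differed by 0.081 on the log2 scale (limma adjusted p = 0.122).

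Irf3, the factor phosphorylated by TBK1, lies on chromosome 7 from 44997648 to 45002848. It had 4915, 5105 and 5429 normalized counts in WT and 4965, 4896 and 4933 in cKO. The cKO values sat close together at the low end of the WT range, and those of samples 1 and 3 lay inside it. The means of 5149 ± 260 (SD, n = 3) and 4931 ± 34.3 (SD, n = 3) gave a log2 fold change of −0.061 (95% confidence interval −0.14 to 0.021, limma adjusted p = 0.251). Irf7, the third factor of this group and itself interferon-inducible, is not one of the 9 genes. It fell from a mean of 32582 ± 463 normalized counts to one of 20477 ± 341 (SD, n = 3 each), so it dropped by 0.67 on the log2 scale (limma adjusted p = 1.30e-15).

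Irf8 was the most abundant of the 9 transcripts and was slightly lower in cKO. The gene lies on chromosome 8 from 120736358 to 120756694, and its mean ranked 38 of the 14490 genes by normalized counts. It had 147745, 152088 and 146726 normalized counts in the WT samples against 135942, 136469 and 133498 in those of cKO. The groups did not overlap. The mean was 148853 ± 2848 in WT against 135303 ± 1585 in cKO (SD, n = 3 each), a log2 fold change of −0.14 (95% confidence interval −0.20 to −0.077, limma adjusted p = 0.000489). With equal totals the change shrank to −0.088 and was still called, with an adjusted p of 0.00818.

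Irf4, the close relative of Irf8, was the scarcest member. It lies on chromosome 13 from 30749226 to 30766976 and had 903, 788 and 761 normalized counts in WT and 852, 941 and 892 in cKO. The groups overlapped because WT sample 1 was above 2 of the 3 cKO samples. The means of 817 ± 75.2 (SD, n = 3) and 895 ± 44.3 (SD, n = 3) gave a log2 fold change of 0.13 that did not pass the test (95% confidence interval −0.024 to 0.29, limma adjusted p = 0.184). With between 662 and 1035 reads per sample, counting alone gives Irf4 an SD of about 0.049 on the log2 scale, against an observed SD of 0.13 in WT and 0.071 in cKO.

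Some markers of cells in which Irf4, Irf5 and Irf8 are also active differed between the genotypes. Among all genes 36.6% were called. Of 11 listed B cell markers 8 were higher in cKO and 0 lower (5 and 0 without cKO replicate 1 or without cKO replicate 3), and their sum rose 1.32-fold. Of 8 monocyte, macrophage and neutrophil markers 4 were higher and 1 lower (2 and 1 without WT replicate 2), with sums of 15711 to 16246 in WT and 18481.6 to 19989 in cKO, and S100a8, S100a9, Mpo and Elane were not among the listed genes. Most of the rise of this sum was that of Ccr2, from 8655 ± 335 to 11613 ± 382 normalized counts (SD, n = 3 each). Lyz2, the 1 called lower, fell from 2186 ± 92.4 to 1663 ± 176 (SD, n = 3 each). Of 7 dendritic cell markers 1 was higher and 1 lower, with sums of 17695 to 17962 in WT and 15956 to 16759 in cKO, and Siglech, Flt3, Clec9a and Cd209a were not among the listed genes. The fall of this sum was that of Zbtb46, the 1 called lower, from 4284 ± 115 to 2701 ± 38.7 normalized counts (SD, n = 3 each). Of 3 plasma cell markers none was called (0 genes), with sums of 176 to 186 in WT and 191 to 224 in cKO. Of 9 T cell markers 0 were higher and 2 lower (2 and 1 with equal totals). Their sums were 2884 to 3175 in WT and 2557 to 2775 in cKO. The part of these cells in the levels of Irf4, Irf5 and Irf8 was not tested.

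Irf1 and Irf2 did not pass the test. Irf1, on chromosome 11 from 53770014 to 53778374, had 33570.0, 34075 and 33074 normalized counts in WT and 34502, 35274 and 33529 in cKO. Its groups overlapped, and the log2 fold change of 0.036 had a 95% confidence interval of −0.025 to 0.098 (limma adjusted p = 0.373). Irf2, on chromosome 8 from 46739732 to 46847458, had 6545, 5776 and 6254 normalized counts in WT and 6728, 6482 and 6530.3 in cKO. WT sample 1 lay inside the cKO range, and the log2 fold change was 0.089 (95% confidence interval 0.0054 to 0.17, limma adjusted p = 0.0903). Irf2 was called higher without WT replicate 1 (adjusted p = 0.0198). With equal totals both were called higher, Irf1 with a log2 fold change of 0.086 (adjusted p = 0.0133) and Irf2 with 0.14 (adjusted p = 0.00973).

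**Figure D3:**
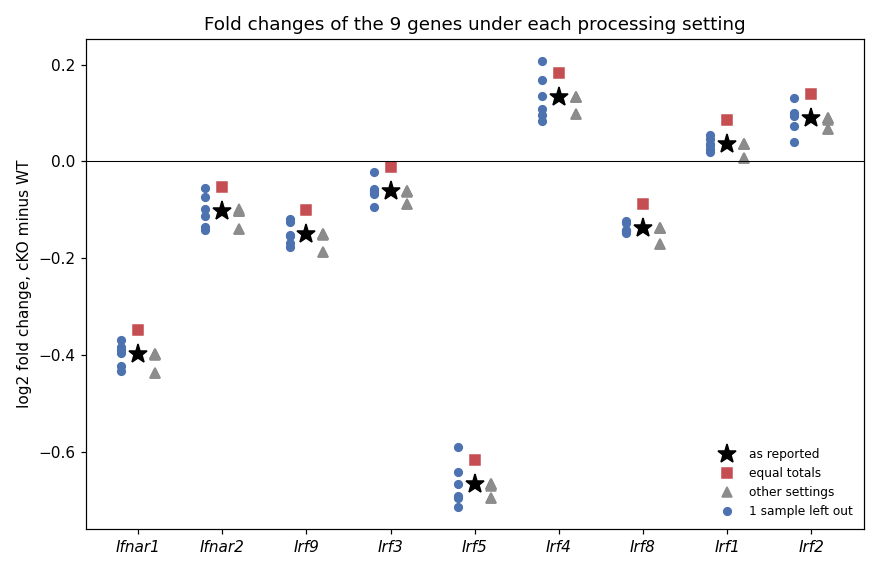
Log2 fold change (cKO minus WT) of each of the 9 genes as reported (star), with samples scaled to equal totals (square), with 1 sample left out (circles) and under the other settings (triangles). No gene changes sign under any of these settings, and only Irf9 loses its call, at −0.10 with equal totals.

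Levels were compared between genes per kilobase of the longest protein-coding transcript in the annotation. In WT, Irf8 stood highest with 52284 ± 1000.2 (SD, n = 3) normalized counts per kilobase. Irf1 followed with 15710.4 ± 234 (SD, n = 3) and Ifnar1 with 4758 ± 210.4 (SD, n = 3). Irf3 (2535 ± 128, SD, n = 3) and Irf2 (2480 ± 156, SD, n = 3) did not differ beyond their spread, nor did Irf5 (1470.1 ± 49.9, SD, n = 3) and Irf9 (1467 ± 44.4, SD, n = 3). Ifnar2 came below these with 1021 ± 44.3 (SD, n = 3), and Irf4 was lowest with 172 ± 15.8 (SD, n = 3). In cKO the order was Irf8, Irf1, Ifnar1, Irf2, Irf3, Irf9, Ifnar2, Irf5 and Irf4. Irf5 thus stood below Irf9 in cKO, at 928 ± 83.4 (SD, n = 3) per kilobase, and overlapped Ifnar2 at 951 ± 57.5 (SD, n = 3). The upper 3 and the lowest gene kept their places with the summed length of all annotated exons, while the order between them depended on the length used.

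**Figure D4:**
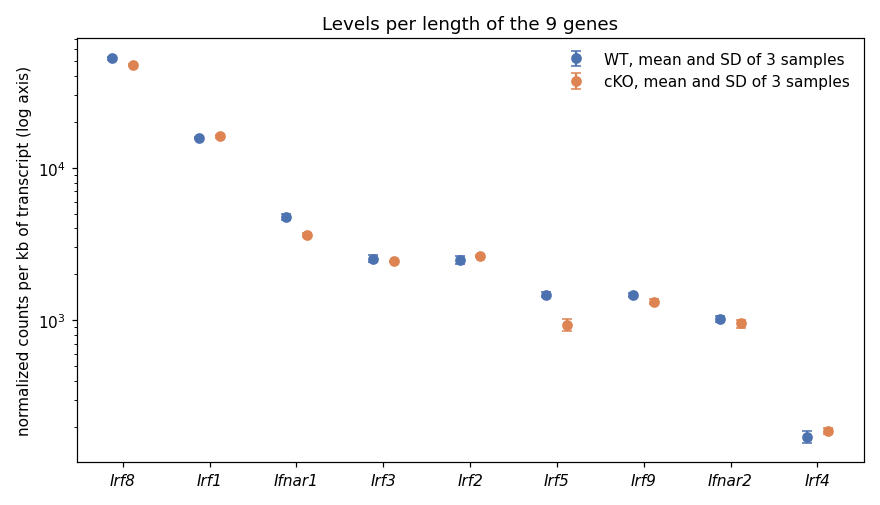
Level per length (normalized counts per kilobase of transcript, log axis) of the 9 genes in WT (blue) and cKO (orange), as mean and SD of 3 samples, ordered by the WT level. Irf8 is highest, Irf4 lowest, and Irf5 shows the widest gap between genotypes.

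Among the 4 called genes, Pearson's r of the log2 values over the 6 samples ranged from 0.85 to 0.95 over 6 pairs. These samples share the genotype difference, and any 2 genes that are lower in cKO are correlated in this way. Among the 11046 other genes with a mean of at least 100 normalized counts, the pattern most like that of Irf5 was that of Stk39 (r = 0.998), that most like Irf8 was Ndufc2 (r = 0.999), that most like Irf9 was Gm29237 (r = 0.9996) and that most like Ifnar1 was Zmiz2 (r = 0.998). With 6 points such values are easily reached, and r was above 0.95 for between 172 and 862 genes per member.

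Promoter sequences were available for all 9 genes, as 12 windows of GRCm38.p6 from RefSeq that run from 250 bases before to 50 bases after a transcript start. They were searched on both strands for the core of the interferon-stimulated response element (GAAA, any 2 bases, GAAA), for the STAT-binding GAS element (TTC, any 3 bases, GAA, which reads the same on both strands) and for the ETS-IRF composite element (GGAA, any 2 bases, GAAA). A GAS match was held by 5 of the 12 windows, those of Irf1, Irf2, Irf8, Ifnar1 and Ifnar2, against 8.33% of 32544 windows of all genes. The response element was matched in 1 window, that of Irf2, against 3.45% of all, and the composite element in the same window at overlapping bases, against 2.73%. The sites are shown because the members that fell divide on them. Irf8 and Ifnar1 held GAS matches and Irf5 and Irf9 none, and Irf1, Irf2 and Ifnar2, which did not pass the test, held them too. Each is given with 30 bases of the gene's strand, all of them plus strands, and the matched bases are in capitals.
Irf8 GAS, chr8:120736177-120736206, first matched base 171 bases before the start: caaaagtgatTTCTCGGAAagagagcgctt
Irf8 GAS, chr8:120736195-120736224, first matched base 153 bases before the start: aagagagcgcTTCAGAGAAggcggatttgg
Ifnar1 GAS, chr16:91485200-91485229, first matched base 5 bases before the start: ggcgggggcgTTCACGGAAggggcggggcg
Ifnar2 GAS, chr16:91372559-91372588, first matched base 214 bases before the start: tgccaaggccTTCCTGGAAgaagagagtac
Irf1 GAS, chr11:53769914-53769943, first matched base 90 bases before the start: acagcctgatTTCCCCGAAatgatgaggcc
Irf2 response element, chr8:46739495-46739524, first matched base 241 bases before the start: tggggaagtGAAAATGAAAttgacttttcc
Irf2 composite element, chr8:46739495-46739524, first matched base 247 bases before the start: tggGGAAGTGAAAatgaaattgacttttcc
Irf2 GAS, chr8:46739511-46739540, first matched base 224 bases before the start: aaattgacttTTCCGAGAAatgatgaaagc
A match is a description of letters and not evidence of binding.

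METTL3 methylates adenosines in a short consensus of which GGACU is the best known form, so the annotated transcripts were searched for it. The longest protein-coding transcript of Irf5 held 0 copies and that of Irf8 also 0, in 2241 and 2847 bases. Irf9 held 3 copies (1.01 per kilobase), Ifnar1 4 (1.02 per kilobase), Irf2 3 (1.20 per kilobase), Irf4 8 (1.68 per kilobase), Irf1 5 (2.34 per kilobase), Irf3 5 (2.46 per kilobase) and Ifnar2 10 (3.28 per kilobase). The median over 14105 genes was 1.02 per kilobase, with quartiles of 0.573 and 1.52. Of the 4 genes that fell, Irf5 and Irf8 lay below this median. Irf9 and Ifnar1 lay close to it, Irf9 just below and Ifnar1 just above. The other 5 lay above it, with Irf2 still inside the quartiles. This is given as a description with no test. Other forms of the consensus were not searched, and methylation was not measured in these samples.

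The other genes of the pathway moved in both directions. Of 20 sensors and adaptors upstream of IRF3, IRF5 and IRF7, 2 were higher and 3 lower, against 3 and 3 with equal totals. As reported, 15 of the 20 were not called, so the called share was below the 36.6% of all genes. Mavs, the adaptor of cytosolic RNA sensors, rose by 0.29 on the log2 scale (limma adjusted p = 0.000201), and the kinase gene Ikbke by 0.13 (adjusted p = 0.0148), a call lost without WT replicate 1 (adjusted p = 0.108), without cKO replicate 2 (adjusted p = 0.0509) and with the GC and length correction (adjusted p = 0.0726). Ticam1, the adaptor of TLR3 and TLR4, fell with −0.32 (adjusted p = 1.32e-06), the ubiquitin ligase gene Traf6 with −0.27 (adjusted p = 9.24e-07) and Tmem173, which encodes STING, with −0.22 (adjusted p = 3.18e-05). None of the 18 type I interferon genes on the list was among the listed genes, and their level was not analysed here.

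Of the 4 other IRF and IRF2-binding protein genes in the table, 2 were higher and 2 lower (100% called, against 36.6% of all genes). With equal totals 2 were higher and 1 lower. Besides Irf7, the 4 genes were Irf2bp2 (−0.12, limma adjusted p = 0.00212), Irf2bp1 (0.16, adjusted p = 0.0127) and Irf2bpl (0.25, adjusted p = 8.83e-07), given as log2 fold changes. The call of Irf2bp2 was lost with equal totals (adjusted p = 0.0547), and that of Irf2bp1 without cKO replicate 2 (adjusted p = 0.0807), without cKO replicate 3 (adjusted p = 0.0590) and with the GC and length correction (adjusted p = 0.0896). Of 8 partners of IRF4 and IRF8 on DNA, 3 were higher and 1 lower, against 4 and 0 with equal totals. As reported, 4 of the 8 were called, a share above the 36.6% of all genes. Junb rose by 0.24 on the log2 scale (adjusted p = 1.05e-06). Batf3 (0.50, adjusted p = 0.0306) and Spib (0.64, adjusted p = 0.0454) were scarce, with 161 ± 17.0 and 102 ± 7.94 normalized counts in cKO (SD, n = 3 each). The call of Spib was lost without any 1 of the 6 samples other than WT replicate 2, with adjusted p from 0.0658 to 0.247. That of Batf3 was lost without any 1 sample other than WT replicate 3 and cKO replicate 2, with adjusted p from 0.0621 to 0.134. Tcf3 fell (−0.11, adjusted p = 0.0134), a call lost without cKO replicate 1 (adjusted p = 0.0748), without cKO replicate 3 (adjusted p = 0.0689) and with equal totals (adjusted p = 0.148).

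Of 9 negative regulators of interferon receptor signalling, 2 were higher and 3 lower (55.6% called, against 36.6% of all genes). With equal totals 3 were higher and 2 lower, and there Pias1 was called higher (0.15 on the log2 scale, adjusted p = 0.00746). Socs1 rose by 0.53 on the log2 scale (limma adjusted p = 4.94e-11) and Socs3 by 0.33 (adjusted p = 1.98e-09), whereas the phosphatase genes Ptpn2 (−0.31, adjusted p = 1.78e-07), Ptpn1 (−0.13, adjusted p = 0.00123) and Ptpn11 (−0.12, adjusted p = 0.0122) fell. The call of Ptpn11 was lost with equal totals (adjusted p = 0.145), without WT replicate 1 (adjusted p = 0.0769) and without cKO replicate 1 (adjusted p = 0.0779).

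Downstream genes were read from lists of targets. Of 35 interferon-stimulated genes 7 were higher and 12 lower (54.3% called, against 36.6% of all genes), with a median log2 fold change of −0.12. The counts were 8 and 7 with equal totals and 4 and 9 without cKO replicate 1. Ddx60 (−0.79, limma adjusted p = 1.67e-07), Rsad2 (−0.62, adjusted p = 3.49e-07) and Oasl1 (−0.37, adjusted p = 3.46e-05) had the lowest p among those that fell, and Dtx3l (0.33, adjusted p = 6.55e-06), Ifi47 (0.28, adjusted p = 2.32e-05) and Oas3 (0.37, adjusted p = 0.000496) among those that rose. Of 23 genes inducible by interferon-gamma and IRF1, 1 was higher and 9 lower (43.5% called, against 36.6% of all genes), with a median log2 fold change of −0.048. With equal totals 3 were higher and 9 lower, with a median of 0.0018. The guanylate-binding protein genes Gbp3 (−0.84, adjusted p = 7.91e-16) and Gbp2 (−0.57, adjusted p = 2.41e-09) and the class I light chain gene B2m (−0.29, adjusted p = 4.17e-08) fell, and the GTPase gene Igtp rose (0.27, adjusted p = 0.00517).

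**Figure D5:**
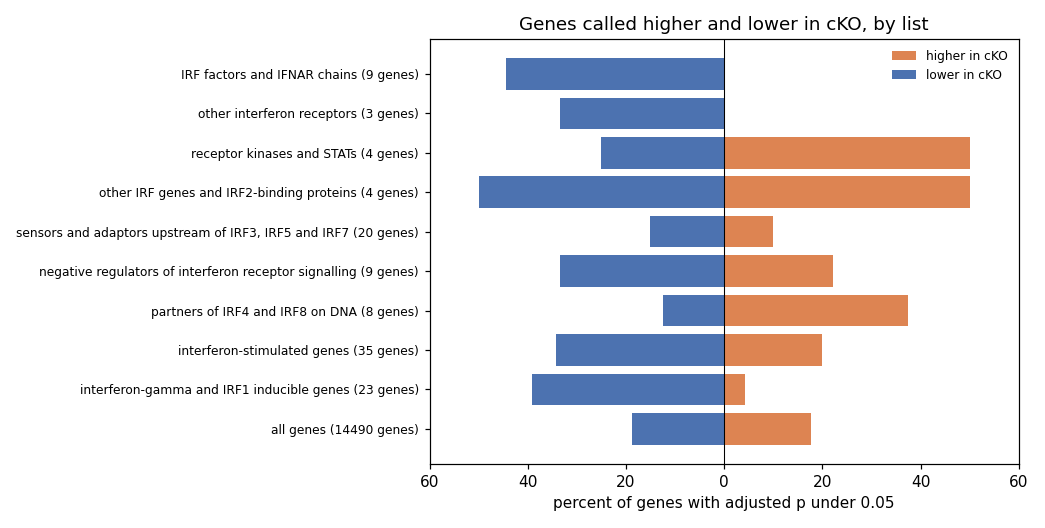
Percent of the genes of each list with an adjusted p under 0.05, higher in cKO to the right and lower in cKO to the left, with the number of genes in the table in brackets. All genes together stand at 17.8% higher and 18.8% lower, and the 9 IRF and receptor genes at 0 higher and 44.4% lower.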

How the data were processed

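mRNA-seq of sorted splenic NK cells was analysed, with 3 WT and 3 cKO samples grouped by the sample titles. Per the submitters' processing notes, HISAT2 placed the reads on GRCm38, featureCounts assigned them to genes and DESeq2 was used afterwards. How overlapping genes and strand were handled is not given in the sources used here. The deposited signal of each sample is the read count of a gene divided by the sample's size factor. All values were whole multiples of 1 step per sample (tolerance 0.02 of a read). The table also holds the authors' comparison (mean, log2 fold change, standard error, statistic, p-value and adjusted p-value), which was not used.

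The test was limma 3.58.1 (R 4.3.3) on log2(value + 1), with genotype as the term and a trended variance, and p-values were two-sided and adjusted by the Benjamini-Hochberg method across the table. A value of 1 was required in 3 samples, which all 14490 genes met. The lowest mean of any listed gene over the samples was 16.7 normalized counts. A gene that is not listed may therefore have been low rather than absent. A gene was called at an adjusted p under 0.05. The design provided for count tests with edgeR and DESeq2 only as alternatives, and these were not run. Because 1 is added, fold changes of low genes are understated. The steps were also run on data simulated with the same dispersion for every gene. The outcome is not given here and is not used as support. Single values were compared by exact permutation over 20 assignments. Depth was high for the members, from 662 reads for the lowest value of Irf4 to 150350 for the highest of Irf8. Counting error covers only part of the spread, except for Irf3 in cKO. There the observed SD of 0.010 on the log2 scale was below the 0.020 given by counting. Positions, transcripts and lengths come from GENCODE M21 (GRCm38), in which 97.3% of the names were found. A total of 19 names were spreadsheet dates and 1 occurred a second time. None of these concerned the members.

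The members, gene lists, tests and alternatives were chosen with earlier results of these data known. Genes outside the members were named by rule: every gene of lists of at most 5, in longer lists the 3 with the lowest adjusted p in each direction, and for each called member the gene with the highest correlation. Genes that overlap or neighbour a member, Ncr1, Ccr2, Lyz2, Zbtb46, Pias1 and the targeted gene were named outside this rule, after their values were seen. Other markers were used only as sums and counts. The erythroid list (0 genes called) and the type 1 innate lymphoid cell list (1 higher and 0 lower) did not enter a comparison. 1 gene of the pathway is not reported here. Other assays of the study were not analysed here.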

Additional observations from a re-analysis of the deposited data

How the results depend on the processing

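Under the 14 other settings 4 or 5 members were called, against 4 as reported. The number called higher, 0 as reported, was 2 with samples scaled to equal totals (Irf1 and Irf2), 1 with the replicate number as a block (Irf2) and from 0 to 1 with 1 sample left out, and the number called lower was 3 to 5. Irf5, Ifnar1 and Irf8 kept their call in all 14, with log2 fold changes from −0.71 to −0.59, from −0.44 to −0.35 and from −0.17 to −0.088. Irf3 and Irf4 were called in none, with an adjusted p of at least 0.0710 for Irf3 and 0.0504 for Irf4. Correcting for GC content and length (splines of 5 degrees of freedom per sample), added after the data were seen, called Ifnar2 lower (−0.14, adjusted p = 0.0255). No member changed sign. Equal totals moved the median of all genes to 0.051 on the log2 scale and the share of calls that were higher from 48.5% to 63.4%. Samples with the same number had r = −0.024, 0.12 and 0.065 over 11055 genes, for the numbers 1, 2 and 3. Those of numbers 2 and 3 were the highest of all pairs across genotypes, and that of number 1 was not. With so few pairs, this check cannot show whether the samples were paired. With the block the called genes over the table were 5543 against 5307, and Irf2 had an adjusted p of 0.0488. The edgeR and DESeq2 alternatives were not run. With 3 samples per genotype, differences as small as those of Ifnar2 and Irf2 lie at the limit of what this design separates from the spread.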

Other observations

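The receptor chains lie in a cluster on chromosome 16 of GRCm38 in the order Ifnar2, Il10rb, Ifnar1 and Ifngr2, and the genes around this cluster were read after their values were seen. Of 18 other listed genes within 500 kb of it, 7 were called (38.9%, against 36.6% of all genes), 4 higher and 3 lower in cKO. Son, a splicing cofactor gene, rose from 41667 ± 1452 to 48704 ± 1537 normalized counts (SD, n = 3 each), or by 0.23 on the log2 scale. Paxbp1 (0.25), A930006K02Rik (0.30) and Gart (0.17) also rose, and Atp5o (−0.26), a subunit gene of the mitochondrial ATP synthase, Cryzl1 (−0.24) and H3f3a-ps2 (−1.16) fell, all as log2 fold changes. H3f3a-ps2 was scarce, with 54.5 ± 15.0 normalized counts in WT against 23.4 ± 4.19 in cKO (SD, n = 3 each). The fall of Ifnar1 by 0.40 on the log2 scale was thus flanked by genes that moved either way or did not pass the test.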
